A study of Mus musculus with 8 samples.

Results

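Keratins are the intermediate filament proteins of epithelial cells, and each filament is built from pairs of a type I and a type II chain. Krt6a and Krt6b (type II) with Krt16 and Krt17 (type I) are kept in hair follicle keratinocytes of resting skin and are induced in the epidermis by wounding, inflammation and barrier damage, for which they are called stress keratins. Krt7, Krt8 (type II), Krt18 and Krt19 (type I) are keratins of simple and glandular epithelia, which in skin occur in sweat glands, Merkel cells and, for Krt19, in follicle stem cells, and Krt79 (type II) marks the upper hair follicle and its opening, the infundibulum.

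These 9 genes were read from the count tables of mouse skin epidermis, which the series describes as taken off with trypsin. They were chosen by name, out of 54838 genes in each table, and all 9 were found and passed the filter on low counts. The 8 libraries came from Ovol1/2 iDKO mice and control mice at 52 DPI and at 25 DPI, with 2 biological replicates in each of the 4 groups. The abbreviations iDKO and DPI are those of the labels. The products of Ovol1 and Ovol2 are epithelial transcription factors with zinc fingers. The labels used here give no strain, age, sex, Cre driver or deleted exon, and for the controls no genotype beyond that word.

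The libraries held 9824307 to 50711381 counts. Levels are given as CPM, counts scaled to a common library size with a TMM correction for composition. Ovol1 had 99.0 and 193 CPM in the iDKO-labelled libraries of replicates 1 and 2 at 52 DPI, against 62.7 and 157 CPM in the controls of that time. Its 25 DPI values were 148 and 204 CPM in iDKO-labelled libraries, against 135 and 36.3 CPM in control libraries. Ovol2 had 22.3 and 9.16 CPM in iDKO-labelled libraries at 52 DPI, against 21.3 and 7.52 CPM in control libraries. At 25 DPI Ovol2 had 44.6 and 16.7 CPM in iDKO-labelled libraries, against 24.9 and 11.6 CPM in control libraries. Neither targeted gene was lower in the iDKO-labelled library of any pair, so whole-gene counts did not check the genotype labels, and every direction below is that of the labels. Replicates 1 and 2 differed in strand pattern, with 49.8% to 49.97% of stranded counts on the second strand in replicate 1 and 95.4% to 95.7% in replicate 2. Libraries of the same number deviated together from their group means, with correlations of 0.403 to 0.831 over 17839 genes in all 6 pairs of groups. The Y-linked gene Ddx3y had 0 counts at 52 DPI, against 39.4 to 113 CPM at 25 DPI, and Xist 131 to 1139 CPM at 52 DPI against 0.119 to 0.342 CPM at 25 DPI, so time and sex cannot be told apart.

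The tissue label matched the markers, since the basal keratins Krt5 and Krt14 stood at 5244 to 17746 CPM and 6661 to 21605 CPM. Of the 10 Merkel cell markers that are not members, all had counts in some library, and they summed to 6.56 and 0.981 CPM in iDKO-labelled libraries at 52 DPI, against 8.90 and 4.54 CPM in control libraries, and to 7.19 and 1.78 against 11.1 and 0.893 CPM at 25 DPI. The highest of them were Cck (0.357 to 7.82 CPM) and, in control replicate 1 at 25 DPI, Snap25 (3.99 CPM), while Krt20 stood at 0 to 0.235 CPM and Atoh1, the transcription factor that specifies Merkel cells, at 0 to 0.148 CPM. The 6 sweat gland markers that are not members summed to 873 and 3375 CPM in iDKO-labelled libraries at 52 DPI, against 951 and 3495 CPM in control libraries, and to 1539 and 3150 against 1528 and 2395 CPM at 25 DPI. Most of that was the keratin Krt77 (797 to 3452 CPM). Its mean of 2085 CPM lay between those of the epidermal keratinocyte markers Krt1 (1667 CPM) and Krt10 (3227 CPM), so the sum was not read as gland content. Foxc1 stood at 21.4 to 97.2 CPM and Cldn10 at 0.313 to 101 CPM. Aqp5, the water channel of the secretory coil, stood at 0 to 2.88 CPM, Foxa1 at 0 to 0.0784 CPM and Foxi1 at 0 counts in all 8 libraries. Merkel and gland cells are known to express Krt7, Krt8 and Krt18, and the part of such cells in the values of these members was not tested. In bulk tissue, fewer cells of a type and less RNA per cell cannot be told apart.

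A pair of libraries stood apart in several cell type markers. In control replicate 1 at 25 DPI the 4 upper follicle markers that are not members summed to 7002 CPM. The other 7 libraries held 834 to 2271 CPM. Most of the 7002 CPM was Cst6 at 6570 CPM. Plet1 was also highest in this library (231 CPM, against 36.5 to 128 CPM elsewhere). Lrig1 was lowest in it (108 CPM, against 150 to 377 CPM elsewhere), and Lgr6 stood at 93.4 CPM, against 61.9 to 292 CPM elsewhere. The same library had 403 CPM of 7 melanocyte markers, against 51.1 to 79.5 CPM elsewhere, and 111 CPM of 5 erythroid markers, against 0.628 to 18.3 CPM. In iDKO-labelled replicate 2 at 52 DPI 12 markers of the hair shaft and inner root sheath summed to 319 CPM, against 23.0 to 55.0 CPM elsewhere. The largest parts were Krt71 (81.3 CPM), Krt35 (71.9 CPM) and Krt25 (59.4 CPM). The list was not high throughout, with Krt31 and Krt33a at 0.458 CPM each, against up to 2.29 and 2.09 CPM elsewhere. Krt33b was at 0 in all 8 libraries. In the same pair of libraries 8 T cell markers summed to 587 CPM (iDKO-labelled replicate 2 at 52 DPI) and 705 CPM (control replicate 1 at 25 DPI), against 151 to 299 CPM elsewhere, and 10 epidermal keratinocyte markers to 29285 and 31289 CPM in that order, against 43836 to 49870 CPM elsewhere. In control replicate 1 at 25 DPI the T cell marker Thy1 was not high (22.3 CPM, against 20.1 to 168 CPM elsewhere). Of the keratinocyte markers Krt5, Trp63, Cdh1, Dsg1a and Col17a1 were lowest in that library. Epcam (837 CPM, against 116 to 412 CPM elsewhere) and Perp (6655 CPM, against 1744 to 5705 CPM elsewhere) were highest in it, and Krt14, Krt1 and Krt10 lay between. For 7 dermal fibroblast markers the sums were 139 CPM in iDKO-labelled replicate 2 at 52 DPI and 181 CPM in iDKO-labelled replicate 2 at 25 DPI, against 37.4 to 62.1 CPM in the other 6 libraries. Most of the 139 CPM was Dcn (84.4 CPM), and most of the 181 CPM was Col1a1 (55.4 CPM), Col1a2 (50.7 CPM) and Col3a1 (42.1 CPM).

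The type I genes Krt19, Krt16 and Krt17 lie between positions 100140810 and 100261029 of chromosome 11 (GRCm38), and the other 6 genes between 101411043 and 102032027 of chromosome 15, where Krt18 is the type I gene at the end of the type II cluster. The levels of the 9 keratins spanned several orders of magnitude. Per kilobase of exon, mean levels over the 8 libraries were 1638 CPM for Krt17, 589 for Krt79, 50.4 for Krt16, 36.8 for Krt6a, 1.97 for Krt6b, 0.896 for Krt7, 0.471 for Krt8, 0.365 for Krt18 and 0.225 for Krt19. Krt17 stood above Krt79 on this scale in all 8 libraries, at a Krt79 to Krt17 ratio of 0.289 to 0.466, but per kilobase of coding sequence the log2 ratio was -0.47 to 0.22 and its sign differed between libraries. The ranges of Krt16 (18.5 to 96.1 CPM per kilobase of exon) and Krt6a (8.48 to 131) overlapped, and those of Krt6b, Krt7, Krt8, Krt18 and Krt19 overlapped from each gene to the next. Krt7 changed places with Krt6b when coding length was used, at means of 4.61 against 2.64 CPM per kilobase. Krt17 and Krt79 made up 88.9% to 99.0% of the summed CPM of the 9 genes. Together the 9 took 5.46% to 27.1% of all keratin CPM, most in iDKO-labelled replicate 2 at 52 DPI (27.1%) and control replicate 1 at 25 DPI (20.96%), and 5.46% to 9.39% in the other 6 libraries.

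**Figure D1:**
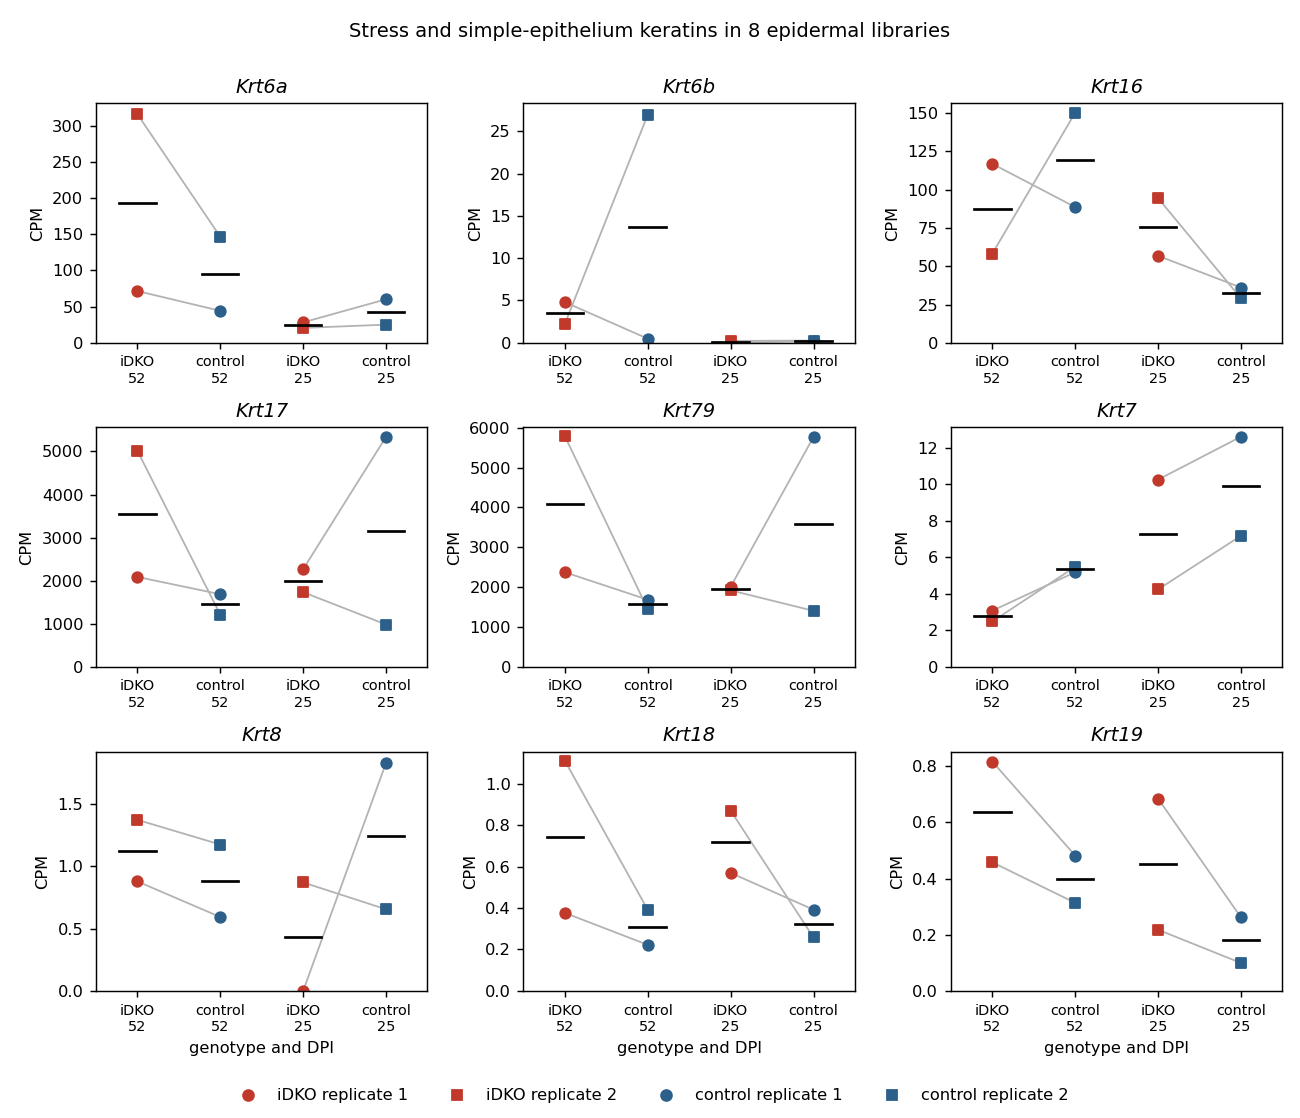
CPM of each keratin in the 8 libraries, by genotype label and DPI, with grey lines joining the libraries of a pair (same time and replicate number) and black bars at group means of n = 2. Each panel has its own linear axis from 0. The highest Krt17 and Krt79 points are control replicate 1 at 25 DPI and iDKO-labelled replicate 2 at 52 DPI.

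Krt6a and Krt6b lie side by side on the minus strand of chromosome 15 (GRCm38), at 101689910 to 101694307 and 101676023 to 101680287. Their coding sequences were identical at 1625 of 1665 aligned positions (97.6%), and 60.3% of all 50-base windows of the Krt6a coding sequence occurred unchanged in Krt6b. Reads from such windows cannot be given to 1 gene, so the split between the paralogs is uncertain, while no other type II pair among the members shared a single 50-base window. Exon bases outside the coding sequence were not compared. The most different stretch of 100 coding bases (coding positions 771 to 870, spliced over an intron, at 101692490 to 101692746 for Krt6a and 101678309 to 101678565 for Krt6b) is shown because, within the coding sequence, only mismatches separate the genes. Its 14 mismatches are in capitals.
Krt6a: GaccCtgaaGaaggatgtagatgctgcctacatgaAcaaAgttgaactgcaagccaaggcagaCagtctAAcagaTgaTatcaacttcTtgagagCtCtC
Krt6b: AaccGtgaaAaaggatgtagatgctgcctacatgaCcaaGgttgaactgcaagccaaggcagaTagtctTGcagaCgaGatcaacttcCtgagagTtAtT
The longest stretch without a mismatch ran over 280 coding bases (positions 34 to 313) and is shown from Krt6a as the kind of sequence that leaves a read ambiguous.
Krt6a and Krt6b: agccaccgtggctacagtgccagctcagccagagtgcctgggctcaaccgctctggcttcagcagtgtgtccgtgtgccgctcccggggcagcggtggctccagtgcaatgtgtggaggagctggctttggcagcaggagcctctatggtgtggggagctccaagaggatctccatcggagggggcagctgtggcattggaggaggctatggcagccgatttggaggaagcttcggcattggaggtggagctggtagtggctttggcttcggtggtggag

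Across the genotype comparisons, edgeR's quasi-likelihood test called 0 of the 9 keratins after Benjamini-Hochberg adjustment over 17839 genes (adjusted p 1 for each at 52 DPI and across both times and 0.9999 for each at 25 DPI). It called 0% of all genes in each of these comparisons as well. At an unadjusted p under 0.05 the test held 143 genes (0.802%) at 52 DPI, 75 (0.42%) at 25 DPI and 130 (0.729%) across both times, and none of the 9 was among them. DESeq2 called 1 gene (0.00561%) at 52 DPI, 2 (0.0112%) at 25 DPI and 8 (0.0448%) across both times, and again none of the 9. With the replicate number as a block within time, which leaves 2 residual degrees of freedom in the fit of group means, some members did pass the unadjusted threshold in edgeR. At 52 DPI these were Krt6a (edgeR unadjusted p = 0.011) and Krt7 (unadjusted p = 0.0401, adjusted p = 1 for both), beside 4.28% of all genes, and at 25 DPI Krt6a (unadjusted p = 0.0371) and Krt16 (unadjusted p = 0.0358, adjusted p = 0.731 for both), beside 6.51%. Across both times they were Krt7 (edgeR unadjusted p = 0.0216) and Krt18 (unadjusted p = 0.0446, adjusted p = 0.996 for both), beside 4.02%. Krt18 passed the filter on low counts through iDKO-labelled libraries alone, which limits its value. The lowest adjusted p of a member in these blocked comparisons was 0.731, so no genotype difference named below was called in either fit.

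Krt6a differed between the times in the direction of its pair differences. At 52 DPI it had 71.5 and 316 CPM in iDKO-labelled libraries of replicates 1 and 2, against 44.1 and 146 CPM in control libraries. At 25 DPI it had 28.2 and 20.5 CPM in iDKO-labelled libraries, against 60.1 and 25.0 CPM in control libraries. The iDKO-labelled library was thus the higher one in both pairs at 52 DPI, at 1.62 and 2.16 times its control, and the lower one in both pairs at 25 DPI, at 0.469 and 0.819 times its control, while the group ranges overlapped at both times. Of all tested genes 8.06% had this pattern of pairs, and Krt6a was the only one of the 9. Fitted log2 fold changes were 1.02 at 52 DPI and -0.81 at 25 DPI, each with an SE of 0.88, and their difference was 1.83 (SE 1.244, edgeR unadjusted p = 0.181, adjusted p = 1). Without iDKO-labelled replicate 2 at 52 DPI the value at 52 DPI was -0.40, and without control replicate 1 at 25 DPI the value at 25 DPI was -0.08. These fits have no replicate block, so the library left in a group was set against both replicates of the other genotype. The pairs left whole were replicate 1 at 52 DPI, at 1.62 times its control, and replicate 2 at 25 DPI, at 0.819 times its control. The difference was 0.39 without iDKO-labelled replicate 2 at 52 DPI, 1.10 without control replicate 1 at 25 DPI and -0.34 without both. With the block within time it was 1.59 (SE 0.37, edgeR unadjusted p = 0.00399, adjusted p = 0.793), beside 6.26% of all genes at an unadjusted p under 0.05.

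Krt6a counts depended on how strand was treated. Its exons overlap the plus-strand genes Gm49428 and Gm44342, and the counts made without regard to strand kept only 48.1% to 56.4% of the reads that the strand columns assign to Krt6a. In iDKO-labelled replicate 2 at 52 DPI, for example, 4830 reads were counted without regard to strand and 9249 on the gene's strand. Every other member with reads in a library kept at least 72.2% of them. The loss was of similar size in all 8 libraries, and with strand-aware counts the edgeR test still called 0 of the 9 in the genotype comparisons.

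**Figure D2:**
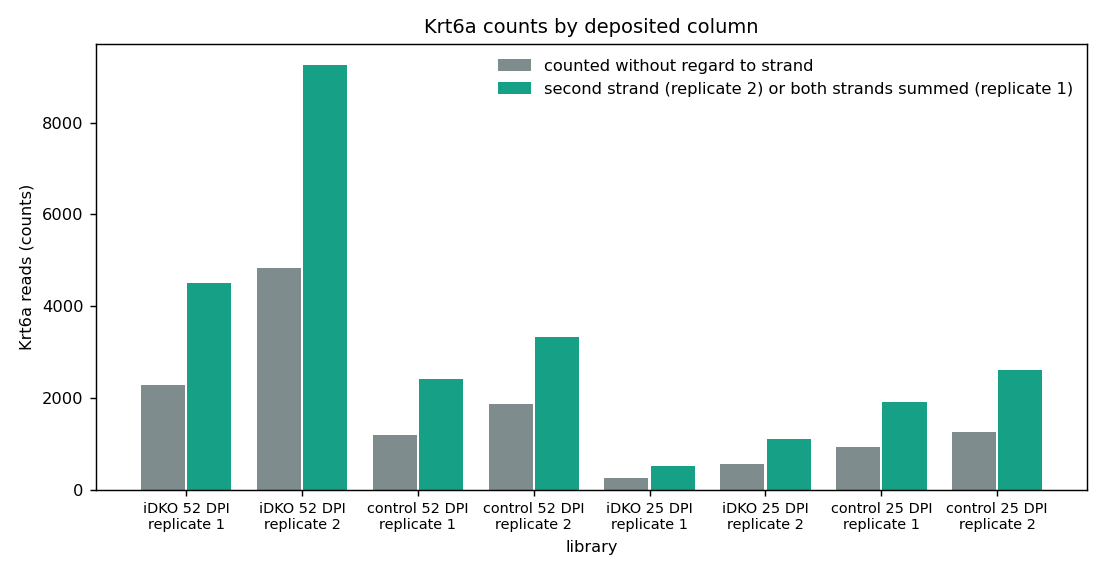
Krt6a reads in each library, counted without regard to strand (grey) and by strand columns (green: second strand for replicate 2, both strands summed for replicate 1). Grey bars reach 48.1% to 56.4% of the green bars, so the loss was alike in iDKO-labelled and control libraries.

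Krt6b had 4.80 and 2.22 CPM in iDKO-labelled libraries at 52 DPI, against 0.482 and 27.0 CPM in control libraries. At 25 DPI it was close to absent, with 0 and 6 counts in iDKO-labelled libraries, against 3 and 13 counts in control libraries, which is 0 and 0.218 CPM against 0.196 and 0.258 CPM. The pairs at 52 DPI went opposite ways, the iDKO-labelled library being 9.97 times its control in replicate 1 and 0.0825 times its control in replicate 2. The log2 fold change at 52 DPI was -1.95 (SE 1.51, edgeR adjusted p = 1) and 2.87 without control replicate 2, the library with the highest Krt6b.

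Krt16, a type I partner of the Krt6 chains, had 117 and 58.3 CPM in iDKO-labelled libraries at 52 DPI, against 88.7 and 150 CPM in control libraries, and the groups overlapped. Its levels at 25 DPI were 56.8 and 94.5 CPM in iDKO-labelled libraries, against 36.1 and 29.0 CPM in control libraries. Both iDKO-labelled libraries lay above both controls at 25 DPI. Of all tested genes 5.39% had iDKO-labelled libraries wholly above controls at 25 DPI, and among the members these were Krt16 and Krt18. Krt18 passed the filter on low counts through iDKO-labelled libraries alone. The log2 fold change of Krt16 was -0.45 (SE 0.56) at 52 DPI and 1.22 (SE 0.57, edgeR unadjusted p = 0.0679, adjusted p = 0.9999) at 25 DPI, with a difference of -1.67 (SE 0.80, unadjusted p = 0.0738, adjusted p = 1). Leaving out 1 library at a time kept the 25 DPI value between 0.80 and 1.60 and the difference between -2.27 and -1.24.

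Krt17, the stress keratin of the outer root sheath, had 2087 and 5015 CPM in iDKO-labelled libraries at 52 DPI, against 1685 and 1214 CPM in control libraries. The 25 DPI values of Krt17 were 2266 and 1733 CPM in iDKO-labelled libraries, against 5339 and 982 CPM in control libraries. Krt79, the upper follicle keratin, had 2373 and 5786 CPM in iDKO-labelled libraries at 52 DPI, against 1684 and 1447 CPM in control libraries. In both genes the 52 DPI iDKO-labelled libraries lay above both controls, as they did in 11.9% of all tested genes. Krt79 had 2007 and 1919 CPM in iDKO-labelled libraries at 25 DPI, against 5765 and 1404 CPM in control libraries. At 25 DPI the control libraries enclosed the iDKO-labelled ones for both genes.

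The size of the difference at 52 DPI lay mostly with 1 library. The iDKO-labelled library was 1.239 and 4.13 times its control for Krt17 in the pairs of replicates 1 and 2 at 52 DPI, and 1.41 and 4.0 times for Krt79. In the fit the log2 fold change was 1.29 (SE 0.91, edgeR adjusted p = 1) for Krt17 and 1.38 (SE 0.85, adjusted p = 1) for Krt79, and without iDKO-labelled replicate 2 these were 0.53 and 0.61. This is the library with 319 CPM of hair shaft and inner root sheath markers, and it also held 34.3 CPM of Krt75, the companion layer keratin, against 0.874 to 7.76 CPM elsewhere. At 25 DPI the values were -0.66 (SE 0.90) for Krt17 and -0.87 (SE 0.84) for Krt79. Without control replicate 1, the library with 7002 CPM of upper follicle markers, most of it Cst6, they were 0.98 and 0.45. The part of follicle content in these values was not tested.

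Krt17 and Krt79 moved together over the libraries, a feature noticed after their values were seen. Krt17 spanned a 5.44-fold and Krt79 a 4.12-fold range of CPM, while the ratio of Krt79 to Krt17 CPM stayed between 0.886 and 1.43. The Pearson correlation of their log2 CPM, centred within replicate number, was 0.98 over the 8 libraries, the highest of the 36 pairs of members, the next being 0.74 for Krt17 with Krt18. Without the pair of libraries that stand apart it was 0.84 over 6 libraries, below the 0.99 of Krt6a with Krt6b and the 0.98 of Krt17 with Krt18. Krt16 and Krt17, neighbours on chromosome 11 with 68.9% of aligned coding positions identical, had a value of -0.27 over 8 libraries and 0.40 over those 6, and Krt6a with Krt16 had 0.27 and 0.705. The correlations describe 8 points that share 4 pairs and a pair of outlying libraries.

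**Figure D3:**
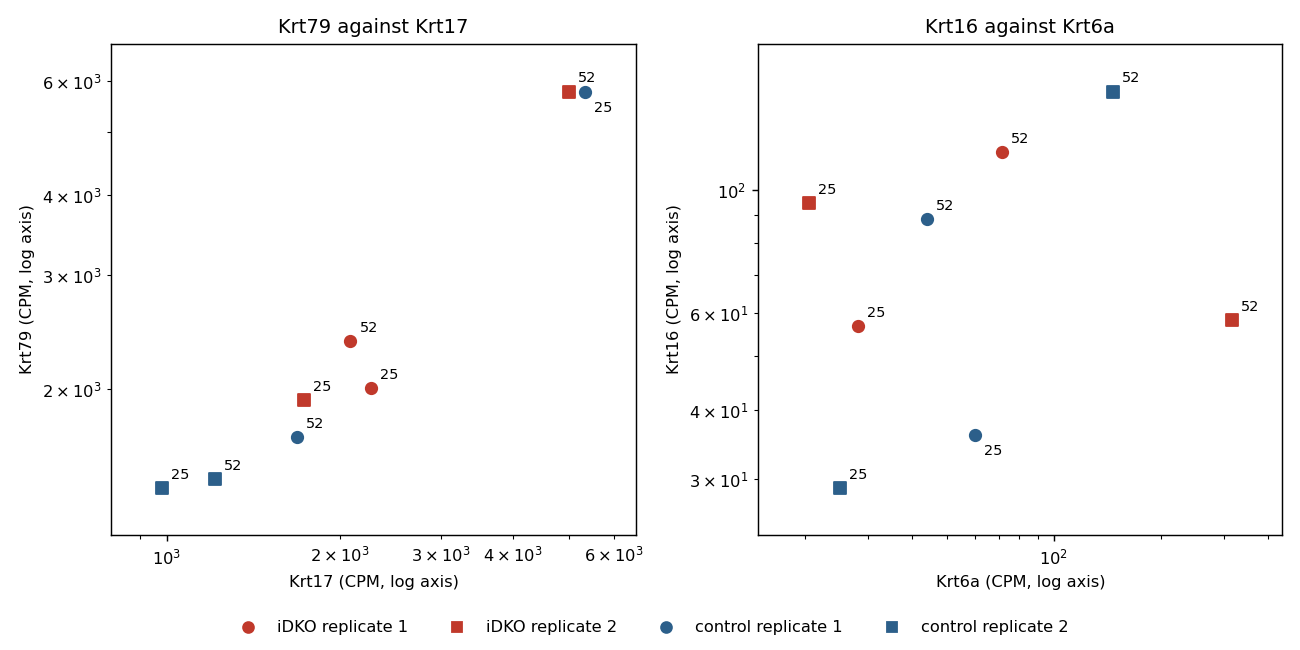
CPM of Krt79 against Krt17 (left) and of Krt16 against Krt6a (right) in the 8 libraries, on log axes, with the DPI beside each point. Krt79 and Krt17 fall along 1 line with a CPM ratio of 0.886 to 1.43, and Krt16 and Krt6a scatter.

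By a fixed rule, the 3 genes most like each member were sought among 12904 genes by the same centred correlation. Those nearest to Krt17 were Hoxc13, Psapl1 and Btc (0.991 to 0.997 over 8 libraries), and those nearest to Krt79 were Lsp1, Fmn1 and Prss12 (0.988 to 0.992). Nearest to Krt16 were Cish, Trpv4 and Tnfaip3 (0.963 to 0.972), nearest to Krt6a Ccser1, Nceh1 and BC026762 (0.969 to 0.974), and nearest to Krt7 Rac3, Nop53 and Gpha2 (0.985 to 0.990). Without the centring the values were 0.926 to 0.991 for the genes nearest to Krt17, 0.779 to 0.952 for Krt16, 0.793 to 0.971 for Krt6a and 0.845 to 0.991 for Krt7. For Krt79 they were 0.941 with Lsp1 and 0.976 with Prss12, but 0.218 with Fmn1. The genes nearest to Krt6b, Krt8, Krt18 and Krt19 by the centred value had -0.234 to 0.963 without it. With 12904 genes and 8 libraries, values of this size are the top of a long list and carry no test.

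Krt7, a type II keratin of glandular and ductal epithelia, was the only member lower in the iDKO-labelled library of all 4 pairs, as were 6.7% of all tested genes. It had 3.08 and 2.49 CPM in iDKO-labelled libraries at 52 DPI, against 5.19 and 5.49 CPM in control libraries. The 25 DPI values were 10.3 and 4.25 CPM in iDKO-labelled libraries, against 12.6 and 7.19 CPM in control libraries, and the counts per library over both times were 38 to 362. The groups did not overlap at 52 DPI, where 10.2% of all genes lay wholly below controls, and did overlap at 25 DPI. Within pairs the iDKO-labelled library was 0.593 and 0.453 times its control at 52 DPI and 0.814 and 0.591 times at 25 DPI. Across both times the log2 fold change was -0.69 (SE 0.42, edgeR unadjusted p = 0.132, adjusted p = 1), and it stayed between -1.02 and -0.51 when any 1 library was left out. At 25 DPI alone it was -0.45 (SE 0.63), and 0.051 without iDKO-labelled replicate 2.

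Promoter sequences from RefSeq (GRCm38.p6, a window around the annotated start) were matched for Krt7, Krt79, Krt8 and Krt18, and not for Krt6a, Krt6b, Krt16, Krt17 and Krt19. They were searched on both strands for CCGTTA, a core bound by OVOL proteins, found in 2.76% of 32851 mouse promoters, for the AP-1 motif TGANTCA (7.81%), for TATAAA (13.6%) and for the GC box GGGCGG (35.7%). CCGTTA and TGANTCA occurred in none of the 4. The Krt8 promoter held 2 matches to TATAAA, which overlap on opposite strands. The Krt7 window lies inside the gene that was counted, which starts at position 101411043, so it does not cover that start. The Krt7 promoter, shown because Krt7 was lower in every pair, held 4 GC boxes, in capitals on either strand (chr15:101412153-101412452, plus strand).
Krt7: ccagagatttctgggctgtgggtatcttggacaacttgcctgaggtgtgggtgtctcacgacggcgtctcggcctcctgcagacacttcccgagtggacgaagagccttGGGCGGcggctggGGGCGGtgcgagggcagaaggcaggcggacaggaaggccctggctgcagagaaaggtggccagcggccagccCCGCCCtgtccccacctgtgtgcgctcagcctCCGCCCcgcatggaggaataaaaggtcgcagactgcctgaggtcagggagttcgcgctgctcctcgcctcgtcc
The Krt79 promoter (chr15:101940275-101940574, minus strand), shown for the most abundant member by CPM with a matched promoter, held none of the 4 motifs.
Krt79: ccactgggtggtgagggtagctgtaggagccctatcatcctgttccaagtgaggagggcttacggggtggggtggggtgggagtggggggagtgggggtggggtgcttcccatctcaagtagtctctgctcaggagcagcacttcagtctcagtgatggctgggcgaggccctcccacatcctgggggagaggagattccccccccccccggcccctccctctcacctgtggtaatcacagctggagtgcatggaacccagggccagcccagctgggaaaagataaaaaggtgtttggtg
A match is a run of letters, and binding was not measured.

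Krt8, a type II keratin of simple epithelia, was counted by at most 33 reads in a library. At 52 DPI Krt8 had 0.879 and 1.37 CPM in iDKO-labelled libraries, against 0.593 and 1.18 CPM in control libraries, and the groups overlapped. The log2 fold change at 52 DPI was 0.35 (SE 1.36, edgeR adjusted p = 1). At 25 DPI it had 0 and 24 counts in iDKO-labelled libraries, against 28 and 33 counts in control libraries, which is 0 and 0.871 CPM against 1.83 and 0.655 CPM. In the pair of replicate 1 at 25 DPI the iDKO-labelled library was at least 5.35-fold lower, with its 0 counts set at a floor of 3 counts per library, which covers counting error only. In the pair of replicate 2 it was 1.33 times its control.

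Krt18, the usual type I partner of Krt8, had 12 and 17 counts in iDKO-labelled libraries at 52 DPI, against 6 and 5 counts in control libraries. Its counts at 25 DPI were 5 and 24 in iDKO-labelled libraries, against 6 and 13 counts in control libraries. After scaling for depth these were 0.377 and 1.11 CPM in iDKO-labelled libraries against 0.222 and 0.392 CPM in control libraries at 52 DPI, and 0.570 and 0.871 CPM against 0.392 and 0.258 CPM at 25 DPI. Krt18 and Krt19 were the members higher in the iDKO-labelled library of all 4 pairs, as were 6.73% of all tested genes. Krt18 reached the level that the filter on low counts asks for in iDKO-labelled libraries alone, so its direction gives no support for a difference. The log2 fold change of Krt18 across both times was 1.22 (SE 0.67, edgeR unadjusted p = 0.102, adjusted p = 1), and 0.85 to 1.46 when 1 library was left out.

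Krt19, a type I keratin of the follicle bulge and of ducts, had 0.816 and 0.458 CPM in iDKO-labelled libraries at 52 DPI, against 0.482 and 0.313 CPM in control libraries. At 25 DPI it had 0.684 and 0.218 CPM in iDKO-labelled libraries, against 0.261 and 0.0993 CPM in control libraries. The differences rested on 4 to 26 counts per library, and the groups overlapped at both times. In the stranded replicate 2 libraries at 25 DPI, 4 of 6 counts in the iDKO-labelled and 4 of 5 in the control library lay on the strand opposite to the gene, so the Krt19 values at this depth are uncertain. The log2 fold change across both times was 0.97 (SE 0.74, edgeR adjusted p = 1).

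**Figure D4:**
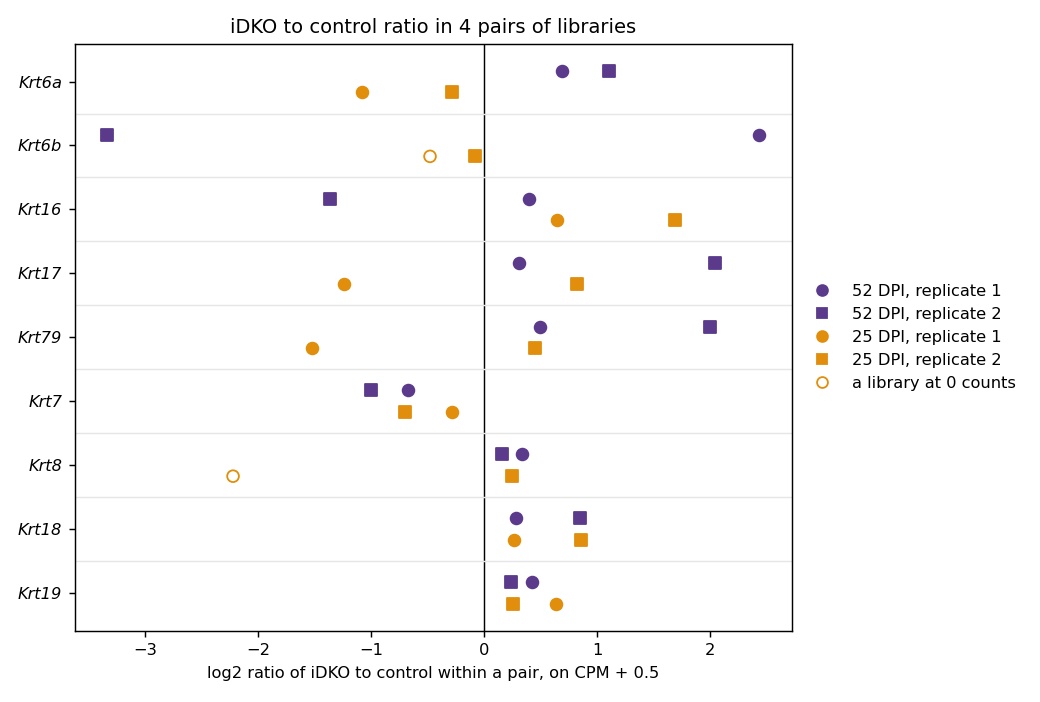
Log2 ratio of the iDKO-labelled to the control library within each of 4 pairs, on CPM + 0.5, with open symbols where a library had 0 counts. Krt7 lies below 0 in all 4 pairs, Krt18 and Krt19 above 0 in all 4, and Krt6a above 0 at 52 DPI and below 0 at 25 DPI. Krt18 passed the filter on low counts through iDKO-labelled libraries alone.

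The pairs were also read by direction alone. At 52 DPI 6 members were higher in both pairs (Krt6a, Krt17, Krt79, Krt8, Krt18 and Krt19, beside 27.8% of all genes) and Krt7 was lower in both (beside 30.4%). At 25 DPI 3 were higher in both pairs (Krt16, Krt18 and Krt19, beside 25.5% of all genes) and 3 lower in both (Krt6a, Krt6b and Krt7, beside 26%). Krt18, named at both times, passed the filter on low counts through iDKO-labelled libraries alone. The median log2 fold change of the 9 was 0.67 at 52 DPI and -0.66 at 25 DPI, beside -0.01 at 52 DPI and -0.03 at 25 DPI for all tested genes. These medians changed without the libraries that stand apart. Without iDKO-labelled replicate 2 at 52 DPI the median at 52 DPI was 0.014, and without control replicate 1 at 25 DPI the median at 25 DPI was 0.45, with 5 of 9 members above 0 in each. Those fits have no replicate block, so they set a lone library against both replicates of the other genotype. In the pair of replicate 1 at 52 DPI every member but Krt7 was above 0. In the pair of replicate 2 at 25 DPI every member but Krt6a, Krt6b and Krt7 was above 0. The comparisons at 52 and 25 DPI share no libraries, and edgeR called 0 of the 9, and 0% of all genes, for the difference between them (139 genes, 0.779%, at an unadjusted p under 0.05, none of them a member). With the block within time Krt6a and Krt16 were under that threshold (edgeR unadjusted p = 0.00399 and 0.0373, adjusted p = 0.793 for both). DESeq2 called 0 genes for this difference.

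The balance of type II to type I chains was computed per kilobase of exon. The ratio of Krt6a and Krt6b to Krt16 and Krt17 was 0.0223 and 0.0402 in iDKO-labelled libraries at 52 DPI, against 0.0161 and 0.0827 in control libraries. At 25 DPI it was 0.00778 and 0.00728 in iDKO-labelled libraries, against 0.00720 and 0.0161 in control libraries. Type I chains exceeded the Krt6 chains in all 8 libraries, also by coding length, and the genotype groups overlapped at both times. The reads of Krt6a lost to overlapping genes lower this ratio. The ratio of Krt7 to Krt19 was 0.992 and 1.43 in iDKO-labelled libraries at 52 DPI, against 2.83 and 4.61 in control libraries, and 3.95 and 5.13 against 12.7 and 19.1 at 25 DPI, on the few Krt19 counts above. These levels depend on the length used, since Krt7 has 7049 bases of exon and 1371 of coding sequence. By coding length the log2 ratio of Krt7 to Krt19 at 52 DPI was 1.73 and 2.26 in iDKO-labelled libraries, against 3.25 and 3.95 in controls. The ratio was lower in the iDKO-labelled library of each pair, which follows from the directions of Krt7 and Krt19. For Krt8 to Krt18 the ratio was 1.71 and 0.907 in iDKO-labelled libraries at 52 DPI, against 1.96 and 2.20 in control libraries. At 25 DPI it was 0.734 in iDKO-labelled replicate 2, with Krt8 at 0 in replicate 1, against 3.42 and 1.86 in control libraries. By coding length the log2 ratio of Krt8 to Krt18 in iDKO-labelled replicate 2 was 0.093 at 52 DPI and -0.21 at 25 DPI.

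Between the times, the stress keratins Krt6a, Krt6b and Krt16 had higher and Krt7 lower group values at 52 DPI. With genotype in the model, the log2 fold change of 52 over 25 DPI was 2.08 (SE 0.70, unadjusted p = 0.0171) for Krt6a, 5.29 (SE 1.25, unadjusted p = 0.00248) for Krt6b, 1.04 (SE 0.48, unadjusted p = 0.0581) for Krt16 and -1.13 (SE 0.42, unadjusted p = 0.0262) for Krt7, with an adjusted p of 0.862 for each by edgeR. The test called 0 of the 9, beside 4 of all genes (0.0224%), and held 3 of the 9 at an unadjusted p under 0.05, beside 4.04% of all genes. Krt17 and Krt79 had values of -0.15 (SE 0.71) and -0.07 (SE 0.71). Krt6b was the only member whose 4 libraries at 52 DPI lay wholly above the 4 at 25 DPI, as did 2.65% of all genes, but it passed the filter on low counts through its libraries at 52 DPI alone. DESeq2 called Krt6b (adjusted p = 0.00117), beside 0.404% of all genes. Leaving the filter out, edgeR called Krt6a and Krt6b (adjusted p = 0.00885 and 1.69e-08) among 184 genes, against 4 genes and no member with the filter. Without control replicate 2 at 52 DPI the Krt6b value was 3.40. The differences run along sex as well as time. Marker lists of other cells also leaned one way between the times, beside a median log2 fold change of -0.12 for all tested genes. Sebaceous gland genes, Krt79 among them, were below 0 in 10 of 11 (median -1.76) and melanocyte genes in 7 of 7 (median -1.39). Bulge genes, Krt19 among them, were above 0 in 8 of 9 (median 0.78) and Langerhans cell genes in 4 of 5 (median 0.94). Without control replicate 1 at 25 DPI the medians were -0.52 for sebaceous gland genes and -0.18 for melanocyte genes. In that fit they were 0.93 for bulge genes and 1.39 for Langerhans cell genes, beside -0.06 for all tested genes. None of these genes was called by edgeR, and their part in the keratin values was not tested.

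**Figure D5:**
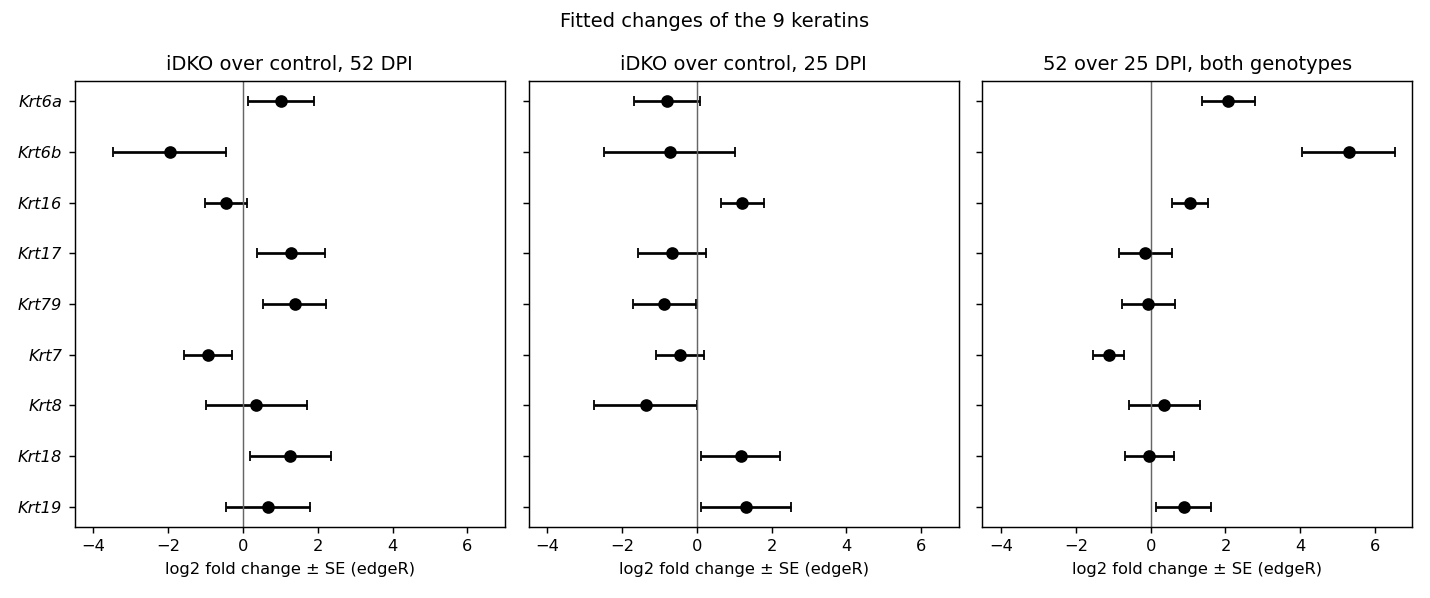
Log2 fold changes from edgeR with bars of 1 SE for the 9 keratins, for iDKO-labelled over control libraries at 52 DPI and 25 DPI and for 52 over 25 DPI with genotype in the model. In the time panel Krt6b stands at 5.29 and Krt6a at 2.08, and no value was called after adjustment.

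The surrounding keratin system was read from 4 lists, and edgeR called 0 of their genes in any comparison. Of all tested genes 48.4% had a log2 fold change above 0 at 52 DPI and 47.5% at 25 DPI. Of 20 partners and linkers of keratin filaments, the log2 fold change was above 0 for 7 at 52 DPI and for 15 at 25 DPI, with medians of -0.15 at 52 DPI and 0.20 at 25 DPI. Dsp, the desmoplakin that ties filaments to desmosomes, had 1780 and 6402 CPM in iDKO-labelled libraries at 25 DPI, against 899 and 6841 CPM in control libraries. It was higher in replicate 2 than in replicate 1 in all 4 groups. Of 26 regulators of stress keratins, 8 were above 0 at 52 DPI and 21 at 25 DPI, with medians of -0.20 at 52 DPI and 0.30 at 25 DPI. The 10 epidermal keratinocyte markers went the same way, with 1 above 0 at 52 DPI and 8 at 25 DPI and medians of -0.33 at 52 DPI and 0.16 at 25 DPI. Without control replicate 1 at 25 DPI the number above 0 at 25 DPI was 15 of the 26 regulators (median 0.15), 6 of the 20 partners (median -0.19) and 4 of the 10 keratinocyte markers (median -0.12), beside 51.9% of all tested genes. Stat3, a signal transducer of inflammatory cytokines, had 431 and 352 CPM in iDKO-labelled libraries at 52 DPI, against 429 and 421 CPM in control libraries, and 288 and 732 CPM against 172 and 355 CPM at 25 DPI. Its iDKO-labelled library was the higher one in both pairs at 25 DPI.

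Of 30 tested wound and activated keratinocyte genes, out of 37 listed, 20 had a log2 fold change above 0 at 52 DPI and 17 at 25 DPI, with medians of 0.21 at 52 DPI and 0.10 at 25 DPI. Without control replicate 1 at 25 DPI 28 of 33 were above 0 at 25 DPI (median 1.36), and without iDKO-labelled replicate 2 at 52 DPI 17 of 33 at 52 DPI (median 0.13). Mmp9, a matrix protease of migrating keratinocytes and leukocytes, had 18.9 and 16.2 CPM in iDKO-labelled libraries at 52 DPI, against 9.64 and 8.78 CPM in control libraries, and 6.50 and 6.75 CPM against 3.46 and 2.26 CPM at 25 DPI. It was higher in the iDKO-labelled library of all 4 pairs, with a log2 fold change of 1.07 across both times (SE 0.31, edgeR unadjusted p = 0.00834, adjusted p = 1). Sprr1a, a cornified envelope precursor induced by stress, had 116 and 473 CPM in iDKO-labelled libraries at 52 DPI, against 76.1 and 126 CPM in control libraries, and 129 and 116 CPM against 612 and 46.4 CPM at 25 DPI. Its highest values fell in the libraries where Krt17 and Krt79 were highest. Of 26 tested keratins outside the 9, out of 45, 12 were above 0 at 52 DPI and 9 at 25 DPI, with medians of -0.08 at 52 DPI and -0.49 at 25 DPI. Without iDKO-labelled replicate 2 at 52 DPI 7 of 28 were above 0 at 52 DPI (median -0.32), and without control replicate 1 at 25 DPI 15 of 34 at 25 DPI (median -0.04). Krt32, a hair cuticle keratin, was lower in the iDKO-labelled library of all 4 pairs, with a log2 fold change of -1.62 across both times (SE 0.62, unadjusted p = 0.0294, adjusted p = 1).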

How the data were processed

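Per the labels' protocols, RNA of mouse skin epidermis was extracted with Trizol and sequenced from SMART-seq v4 libraries. The submitters' processing notes name STAR 2.5.2a, DESeq2 1.24.0, Trimmomatic 0.35 and FastQC 0.11.9, with GRCm38 and mm10. Their settings were not given in the sources used here. Deposited by the authors were raw counts per gene for each library in 3 columns, without regard to strand and by strand.

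The column without regard to strand was tested with edgeR 4.0.16 (R 4.3.3), with TMM scaling, filterByExpr (17839 genes) and a quasi-likelihood fit to all 8 libraries, with group means or with genotype and time. Benjamini-Hochberg adjustment ran over all tested genes, and calls needed an adjusted p under 0.05. CPM uses TMM-scaled library sizes. Pair folds are ratios of CPM, and log2 pair ratios and correlations used CPM + 0.5. Library totals of 9824307 to 50711381 counts leave a floor, at 3 counts, of 0.0596 to 0.342 CPM. Code was tested on simulated data.

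Alternatives were DESeq2 1.42.0, limma-voom (limma 3.58.1), DESeq2 size factors, no filter, replicate blocks, strand columns and leaving out each library. Strand-aware counts and Krt6a with Krt6b as 1 gene and leaving out both libraries that stand apart were added after seeing the data. Replicate numbers, shared by the labels, were taken to pair libraries, since deviations from group means correlated at 0.403 to 0.831 in all 6 pairs of groups. Genes and coding sequences were matched by identifier to GENCODE M21 (54809 of 54838). The members and lists were chosen with earlier results of these data known. From each list up to 3 genes with the smallest p across both times and up to 2 with the highest CPM could be named, and a few of these are described. Nothing in the labels says which animals were litter mates, and p values measure the spread between these libraries.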

Additional observations from a re-analysis of the deposited data

Results flagged for a closer look

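The iDKO effect on Krt6a went opposite ways at the times in every pair, with log2 ratios of the iDKO-labelled to the control library of 0.69 and 1.11 at 52 DPI and -1.08 and -0.28 at 25 DPI. The difference of the fitted effects, 52 minus 25 DPI, was 1.83 on the log2 scale and was not called (edgeR quasi-likelihood, adjusted p = 1). Of all tested genes 8.06% had the pair pattern of Krt6a, and its group ranges overlapped at both times. Without both libraries that stand apart the difference was -0.34. That fit has no replicate block, and the pairs it left whole had log2 ratios of 0.69 (replicate 1 at 52 DPI) and -0.28 (replicate 2 at 25 DPI).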

How the results depend on the processing

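Of 832 values of the 9 keratins under the alternatives, 3 had an adjusted p under 0.05. These were Krt6a and Krt6b between the times without the filter, and Krt6b there by DESeq2. Krt6b passed the filter through its libraries at 52 DPI alone, which limits its DESeq2 call, and time and sex cannot be told apart. The counts of called genes in the comparisons at 25 DPI, at 52 DPI, across both times, of the difference and between times were 0, 0, 0, 0 and 4 by edgeR. They were 8, 25, 16, 19 and 184 without the filter, and 2, 1, 8, 0 and 72 in DESeq2. Blocking on replicate within time, edgeR called 0, 0, 1 and 0 in the genotype comparisons and DESeq2 103, 35, 73 and 39. A replicate block shared by both times called 5 genes between the times, and the blocks called no member. For Krt7 across both times the block within time gave -0.73 (SE 0.25, unadjusted p = 0.0216, adjusted p = 0.996). Between the times 1 gene was called with second-strand counts for replicate 2, 0 with strand-aware counts, and 0 to 2 when 1 library was left out.

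Directions of uncalled members turned for Krt6b under limma-voom (0.32 at 52 DPI, 0.12 across both times, 1.17 for the difference) and, for the difference, with the replicate block (0.28), the block within time (0.42) and DESeq2 with that block (1.33). The Krt18 difference was -0.35 under limma-voom, -0.12 with the block within time and -0.077 by DESeq2 with it. The cause was not tested. Leaving out both libraries that stand apart, where the lone library of a group is taken to vary like the others, gave 0 calls between the times and turned signs to 0.99 for Krt17 and 0.45 for Krt79 at 25 DPI, -0.42 for Krt6a at 52 DPI, -0.25 for Krt6a across both times, -0.34 for Krt6a, -0.46 for Krt17 and -1.14 for Krt18 in the difference, and 0.33 for Krt17 and 0.23 for Krt79 between the times. That fit has no replicate block, so a library left alone in its group is compared with both replicates of the other genotype. Leaving out 1 library, also without a block, turned signs within these log2 ranges. At 25 DPI they were -1.39 to 0.98 for Krt17, -1.52 to 0.45 for Krt79 and -1.14 to 0.051 for Krt7. At 52 DPI they were -0.40 to 2.15 for Krt6a, -2.93 to 2.87 for Krt6b and -0.067 to 0.93 for Krt8. Across both times they were -0.64 to 0.56 for Krt6a, -2.15 to 0.65 for Krt6b, -0.15 to 1.17 for Krt17, -0.24 to 0.99 for Krt79 and -0.86 to 0.051 for Krt8. For the difference they were -2.21 to 3.62 for Krt6b, -0.97 to 0.21 for Krt7, -0.86 to 0.68 for Krt18 and -1.33 to 0.26 for Krt19. Between times they were -0.58 to 0.74 for Krt17, -0.53 to 0.70 for Krt79, -0.11 to 0.87 for Krt8 and -0.40 to 0.23 for Krt18. Krt8, Krt18 and Krt19 had at most 33 counts in a library, which limits their precision.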
